A study of Mus musculus with 18 samples.

Results

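The core pluripotency factors are the proteins that hold embryonic stem (ES) cells in the undifferentiated state. Pou5f1 (encoding OCT4, a POU-domain factor), Sox2 (an HMG-box factor that binds DNA jointly with OCT4), Nanog (a homeodomain factor), Sall4 (a zinc finger factor) and Utf1 (a chromatin-associated protein of undifferentiated cells) were taken by name from a table of nascent transcription, which held all 5 among its 21859 protein-coding genes. A second table lists promoter upstream transcripts (PROMPTs), short RNAs made from a promoter in the direction away from the gene, and 4 of the 5 factors have a row among its 32253 entries. Sall4 has none.

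The cells were E14 murine ES cells grown in serum with LIF and inhibitors of GSK and MEK, and all of them carried osTIR1, the plant protein that directs auxin-bound targets to degradation. In SPT16_AID_V5 clone 1 and clone 2, each a line grown from 1 clone, Supt16 was in addition tagged at its C-terminal end with a mini auxin-inducible degron and triple V5, while untagged cells carried osTIR1 alone. Each line received 500 nM 3-IAA (the auxin, a dose that the study's methods give in micromolar) or 0.1% ethanol (EtOH) for 24 h, and RNA made during 5 min of 4-thiouridine labeling was then sequenced (TT-seq), with 3 libraries for each of 6 groups. SPT16 is a subunit of the histone chaperone FACT, and the series asks how its loss bears on the expression of pluripotency factors. The values used here are means over all libraries, which include 6 from tagged cells in auxin and 12 from the other groups, so they give the level of a gene across the experiment and do not separate depleted from control cells. No value per library was used, so no spread between replicates can be given and nothing was tested.

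The level of a gene or PROMPT is its baseMean, the read count after division by a size factor for each library, averaged over libraries. Features with 1 read in 1 library leave a fixed value for each library in such a mean, and 18 of these values were found in the gene table and 18 in the PROMPT table, the number of libraries. From the lowest to the highest, these values spanned 5.34 times in the gene table and 4.84 times in the PROMPT table, which gives the range of the size factors. The tables were normalized separately, since 0 of the 18 values are shared, but 1 read was worth a geometric mean of 0.995 normalized reads in the gene table and 0.972 in the PROMPT table. Gene and PROMPT levels are thus set beside each other in reads of an average library, with that limit. The geometric means do not show that each library, depleted or control, weighs alike in both.

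By baseMean, genes typical of ES cells were abundant and most genes of other cell types were low, as the label of the cells says. The 8 ES cell markers examined had levels from 1573 (Lin28a) to 72140 (Tfcp2l1), and their levels summed to 188827. Fibroblast markers, 6 genes, summed to 1016, of which 952 came from Pdgfrb, with Col3a1 at 2.03 and Dcn at 1.97. The lists of primitive endoderm, trophectoderm, neural progenitor and mesoderm markers summed to 737, 1725, 288 and 459. Most of the trophectoderm sum came from Tfap2c at 1074. Formative and primed markers, 4 genes, summed to 4244, mostly from Dnmt3b at 3892. These sums are not corrected for gene length or for the number of genes in a list. Per kb of exon, the list medians were 5079 for ES cell markers and from 2.30 (fibroblast) to 47.9 (trophectoderm) for the others. Single genes overlapped, as Lin28a had 394, below Dnmt3b with 762. Per kb of gene span, Lin28a had 101, below Tfap2c with 119 and Dnmt3b with 102. Of all markers examined, the neurogenic factor Neurod1 alone had a level below 1 and was listed at 0. As these are means over depleted and control libraries in bulk RNA, fewer cells expressing a gene and less RNA per cell cannot be told apart.

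The promoters are shown first, because PROMPTs arise from promoter regions. The 250 bases before the most upstream RefSeq start of transcription are given for the 4 factors with an entry (GRCm38.p6, plus strand, on which all 4 are transcribed, 5′ to 3′). They lie at chr17:35505782-35506031 for Pou5f1, chr3:34649745-34649994 for Sox2, chr6:122707239-122707488 for Nanog and chr7:139943606-139943855 for Utf1. Sall4 is named without a sequence. Capitals mark matches on either strand to the octamer core TTTGCAT (the core of the sequence that OCT4 and other POU factors read), the SOX core in the form ACAATG and the GC box GGGCGG. Other forms of these sequences were not searched and are not marked.
Pou5f1: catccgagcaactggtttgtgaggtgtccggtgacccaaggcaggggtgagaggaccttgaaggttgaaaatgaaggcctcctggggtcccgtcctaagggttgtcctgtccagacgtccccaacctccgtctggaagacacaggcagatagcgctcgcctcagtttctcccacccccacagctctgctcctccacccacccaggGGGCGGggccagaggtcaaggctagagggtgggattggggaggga
Sox2: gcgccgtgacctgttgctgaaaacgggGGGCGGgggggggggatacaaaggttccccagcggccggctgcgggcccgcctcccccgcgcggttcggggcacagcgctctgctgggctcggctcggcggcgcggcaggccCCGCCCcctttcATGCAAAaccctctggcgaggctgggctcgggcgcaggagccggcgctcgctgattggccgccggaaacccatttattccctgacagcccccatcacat
Nanog: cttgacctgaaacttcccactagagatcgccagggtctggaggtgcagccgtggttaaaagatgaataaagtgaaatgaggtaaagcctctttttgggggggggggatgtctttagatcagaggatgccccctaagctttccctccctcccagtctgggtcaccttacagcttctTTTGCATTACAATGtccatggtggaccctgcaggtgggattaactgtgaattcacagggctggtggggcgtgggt
Utf1: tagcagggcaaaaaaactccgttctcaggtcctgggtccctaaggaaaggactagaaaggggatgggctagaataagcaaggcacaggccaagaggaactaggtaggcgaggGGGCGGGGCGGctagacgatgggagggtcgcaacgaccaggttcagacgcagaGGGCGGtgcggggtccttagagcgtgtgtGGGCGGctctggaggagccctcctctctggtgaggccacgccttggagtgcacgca

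The Nanog promoter contains the octamer core and the SOX core side by side, as TTTGCATTACAATG from 75 to 62 bases before the start. This arrangement, an octamer core and a SOX core on the same strand with any 1 base between them, was searched on both strands and found in 2 of 32851 promoter records of the same length (0.00609%), and both belong to starts of Nanog itself. The pattern equals the Nanog letters with 1 base left free, so a match at Nanog was given by the search. A pattern of this length with so few free letters is rare in any case. The count therefore does not show that the arrangement is particular to Nanog. The search allowed no other letters in either core, so variants of the arrangement in other promoters were not counted. In the Sox2 promoter an octamer core lies on the opposite strand from 99 to 93 bases before the start, and 2 GC boxes lie farther upstream, from 223 to 218 and, on the opposite strand, from 111 to 106 bases before the start. Octamer cores alone occurred in 4.12% of promoter records, SOX cores of the form ACAATG in 10.7% and GC boxes in 32.7%. Pou5f1 had 1 GC box, ending 40 bases before the start, and Utf1 had 4, of which the 2 farthest from the start share a base. The Gencode vM21 annotation, used below for gene positions, starts Sox2 410 bases downstream of its RefSeq start. It starts Utf1 67 bases and Pou5f1 14 bases upstream of theirs. The Utf1 GC box from 56 to 51 bases before the RefSeq start thus lies within the gene as Gencode draws it. None of the 4 promoters matched TATAAA, which 12.4% of records did. The matches describe the letters of these windows alone.

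In base composition the promoters also differed. Sox2 had 72.0% G and C with 27 CpG pairs, and only 6.45% of promoter records had a higher share of G and C. Pou5f1 and Utf1 had 62.0% and 61.6%, with 8 and 14 CpG pairs. Nanog had 52.0%, close to the median of 52.4% over all records, and 3 CpG pairs against a median of 6. The ratio of observed to expected CpG was 0.833 for Sox2, 0.638 for Utf1, 0.334 for Pou5f1 and 0.182 for Nanog, with a median of 0.374 over all records.

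All of the genes but Sall4 are compact. On GRCm38 by Gencode vM21, Pou5f1 lies on chromosome 17 from 35506018 to 35510772 (6 exonic blocks in 4755 bp), and Nanog on chromosome 6 from 122707489 to 122714633 (5 exonic blocks in 7145 bp). Sox2 is a single exon of 2.06 kb on chromosome 3 from 34650405 to 34652461. RefSeq starts Sox2 410 bases farther upstream, and the levels per kb below use the Gencode length. Utf1, on chromosome 7 from 139943789 to 139945112, has 2 exons in 1.32 kb, and Sall4, on the minus strand of chromosome 2 from 168748332 to 168767943, is the longest at 19.6 kb with 7 exonic blocks. Some have neighbors that bear on the counting. Sox2 sits within Sox2ot, a much longer noncoding gene on the same strand, so that reads of Sox2ot over these bases cannot be told from Sox2. The 3′ part of Pou5f1 overlaps the antisense gene Gm19553 over 1475 bp, and the 5′ part of Sall4 overlaps Gm14261 over 1801 bp, both on the opposite strand, which the counting by strand keeps apart.

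**Figure D1:**
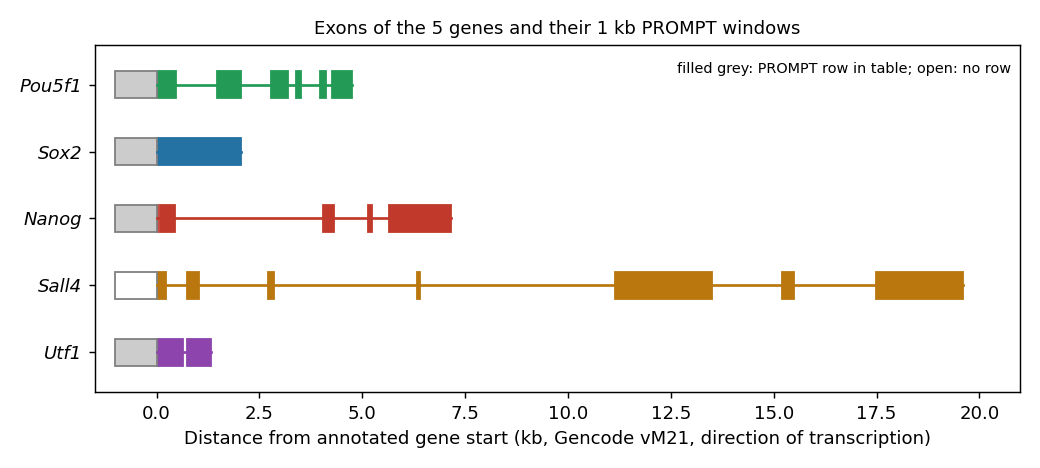
Exons (colored blocks) and introns (lines) of the 5 genes, drawn to scale in kb from the annotated gene start in the direction of transcription, with the 1 kb PROMPT window upstream in grey where the PROMPT table has a row and open where it has none. Sox2 is a single block of 2.06 kb, while Sall4 extends over 19.6 kb and has the open window.

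By baseMean, which is not corrected for gene length, 4 of the 5 factors stood high and Utf1 stood below the median of all genes. Nanog had a baseMean of 14788, rank 816 of 17677 genes once those under a level of 1 were left out. Sall4 followed at 10886 (rank 1380), then Pou5f1 at 7585 (rank 2218) and Sox2 at 5985 (rank 2871). Utf1, at 248, had rank 11118, below the median of 762 over these genes. Summed over the 18 libraries, these levels stand for 4462 normalized reads of Utf1 and from 107732 (Sox2) to 266189 (Nanog) for the others, so counting error is small. Whether neighbors in this order differ beyond the spread between libraries was not tested.

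Levels of different genes can be compared only per length, and the sources used here do not say whether reads were counted on exons or on whole genes, so both lengths were used. Per kb of exon, Nanog led with 6596, followed by Pou5f1 with 3374, Sox2 with 2910, Sall4 with 1966 and Utf1 with 202. Only 0.623% of 17664 genes were higher than Nanog, and 2.72%, 3.74%, 7.67% and 50.3% were higher than the other 4 in that order. Per kb of gene span the order at the top changed. Sox2, which has no intron, then led with 2910, ahead of Nanog with 2070, Pou5f1 with 1595, Sall4 with 555 and Utf1 with 187. By this measure Sox2 had rank 39, Nanog 80, Pou5f1 121, Sall4 485 and Utf1 2930, so that 16.6% of genes were higher than Utf1, against 50.3% per kb of exon. Sall4 and Utf1 held the last places by either length.

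Among genes of similar baseMean, the factors were short. Of the 500 genes nearest to Sox2 in rank of baseMean, 496 spanned a longer stretch, with a median span of 39.3 kb. For Pou5f1 and for Nanog 491 of 500 were longer, with medians of 48.9 and 81.8 kb. Utf1 was shorter than 490 of its 500 genes and Sall4 than 455. Exons differed less, since 63.4% of the genes similar to Sall4 and from 91.4% (Utf1) to 97.4% (Nanog) of those similar to the others had more exonic bases. By exon length Sall4 was thus close to its similar genes, with 5.54 kb against a median of 6.66 kb.

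Every relative examined had a lower level per kb of exon than the factor of its own family. Of 5 other POU genes, Pou2f1, which encodes the widely expressed OCT1, was highest with 1611, and Pou5f2, the other gene of the class of Pou5f1, was listed at 0. All 5 lay below Pou5f1, which had 3374. The 6 other SOX genes ranged from 8.43 (Sox3) to 288 (Sox15), below Sox2 with 2910, and the neural factor Sox1 had 50.7. Among SALL genes, Sall1 had 1017, Sall3 592 and Sall2 59.9, all below Sall4 with 1966. Per kb of gene span none of these 14 relatives passed the member of its own family either.

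Within the pluripotency network the factors were not the most transcribed genes. Of 28 other network genes, 5 were above Nanog per kb of exon, namely Zfp42 (REX1, 12345), Esrrb (an orphan nuclear receptor, 10656), Dppa5a (an RNA-binding protein, 10513), Fbxo15 (8579) and Tfcp2l1 (7644). There were 8 above Pou5f1, 10 above Sox2, 14 above Sall4 and 26 above Utf1. The 2 lowest were Myc (104) and Dppa3 (151), and the median of the 28 was 1604, against 207 over all genes. Per kb of gene span only Dppa5a (5779) was above Sox2, while Dppa5a and Klf2 were above Nanog and 19 of 28 were above Utf1. The median was then 413, against 38.9 over all genes. For comparison, the FACT genes had 2526 (Supt16) and 946 (Ssrp1) per kb of exon, and 344 and 358 per kb of span.

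**Figure D2:**
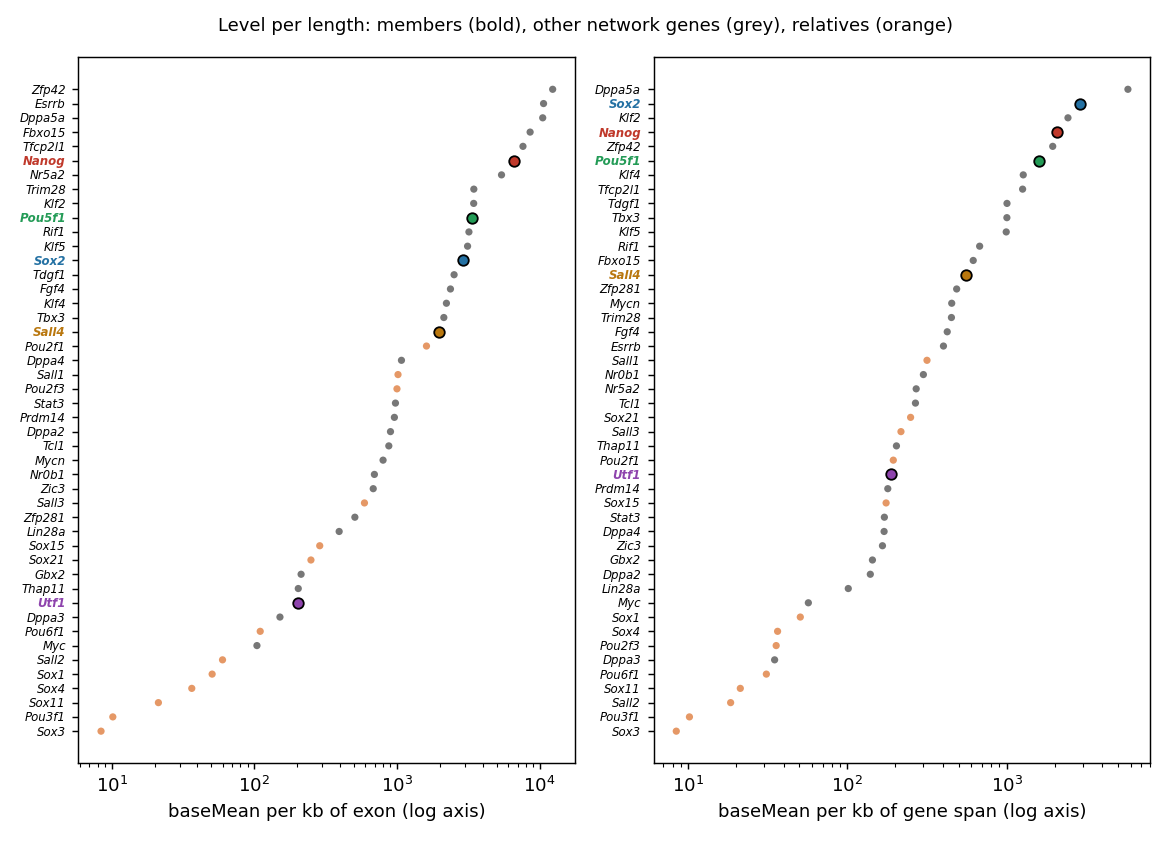
Level of the 5 factors (bold, colored), 28 other pluripotency network genes (grey) and 13 relatives with reads (orange), as baseMean per kb of exon on the left and per kb of gene span on the right, both on log axes and each ordered by its own values. Nanog is the highest of the 5 on the left (6596) and Sox2 on the right (2910), while Utf1 is the lowest of the 5 on both sides.

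PROMPTs of the 4 factors with a row were among the more abundant of their table. Nanog had the highest, with a baseMean of 127 (rank 182 of 32253), followed by Sox2 with 88.1 (rank 370), Pou5f1 with 50.3 (rank 833) and Utf1 with 20.5 (rank 2130). The median of PROMPTs with reads was 0.815, and 0.778%, 1.59%, 3.58% and 9.15% of these were higher than the 4 in that order. Summed over libraries the 4 levels stand for 2290, 1585, 906 and 370 normalized reads. Of the 4, Nanog was highest as a PROMPT and, by baseMean or per kb of exon, as a gene. Pou5f1 was below Sox2 as a PROMPT and above it as a gene by the same measures, whereas per kb of gene span Sox2 was above both.

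In the study a PROMPT is RNA antisense to a gene from the 1 kb upstream of its start. Drawn from Gencode vM21 starts, the windows of 1000 bp lie on chromosome 6 from 122706489 to 122707488 for Nanog, chromosome 3 from 34649405 to 34650404 for Sox2, chromosome 17 from 35505018 to 35506017 for Pou5f1 and chromosome 7 from 139942789 to 139943788 for Utf1. For Nanog, Pou5f1 and Utf1 no other annotated gene overlaps the window. The Sox2 window lies within Sox2ot, whose strand is that of Sox2 and not of the PROMPT, and it holds the RefSeq start of Sox2, 410 bases upstream of the Gencode start. The PROMPT of Sox2ot itself was listed at 0.0610, the value of 1 read in 1 library. At Sall4 the window, on chromosome 2 from 168767944 to 168768943, holds the 3′ end of Gm14261, a noncoding gene on the strand opposite to Sall4 that starts within Sall4. Why Sall4 has no row was not tested.

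**Figure D3:**
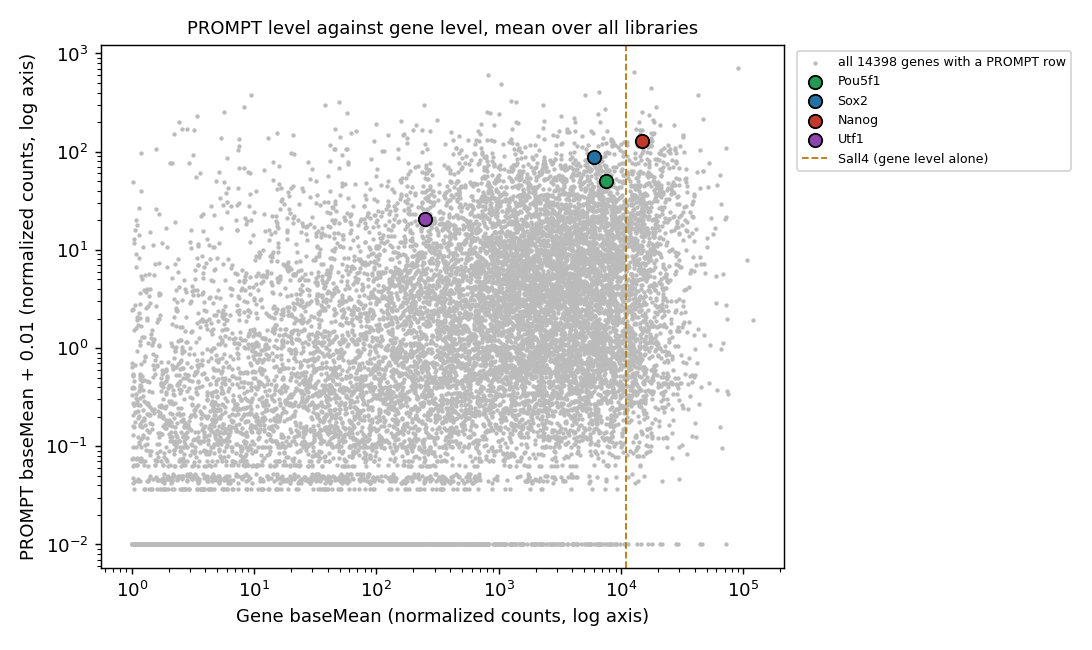
PROMPT baseMean (plus 0.01, log axis) against gene baseMean (log axis) for the 14398 genes with a PROMPT row and a gene level of 1 or more (grey), each value a mean over all libraries, with the 4 factors as colored points and the gene level of Sall4 as a dashed line. The 4 colored points lie in the upper part of the cloud at their gene level, from 20.5 for Utf1 to 127 for Nanog.

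A more transcribed gene tended to have a more abundant PROMPT (Spearman's rho 0.467 across 14398 genes, which share libraries and are not independent replicates), so each factor was set against the 500 genes with a PROMPT row that were nearest to it in baseMean. For Sox2, 491 of 500 similar genes had a lower PROMPT (98.2%), and its level of 88.1 was 30.8 times the median of 2.86. For Nanog 485 of 500 were lower (97.0%), with a level 26.3 times the median of 4.83. Pou5f1 exceeded 469 of 500 (93.8%) at 14.6 times the median of 3.44, and Utf1 exceeded 454 of 500 (90.8%) at 24.2 times the median of 0.848. All 4 thus stood at or above 90% of the genes of their level, as did 10.3% of all 14398 genes ranked in the same way. The 4 genes were chosen for their role and no test was made, so this places each of them and does not show a property of the group.

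**Figure D4:**
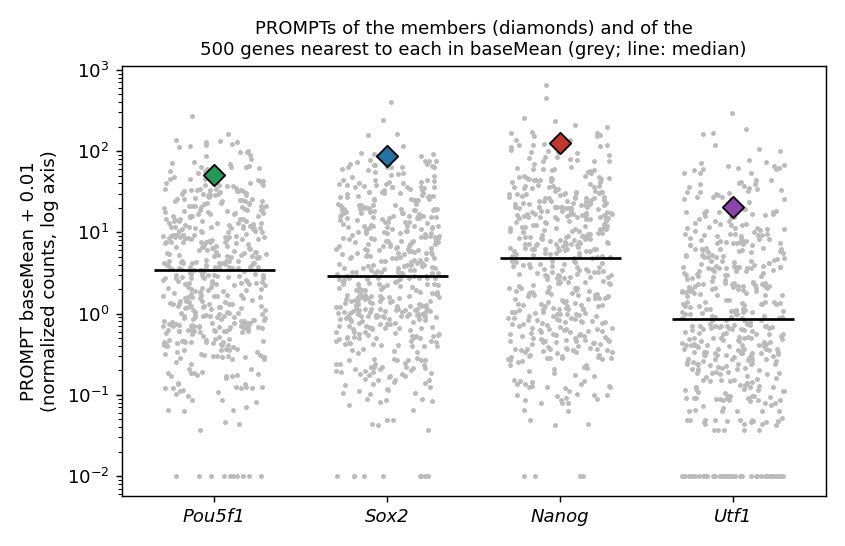
PROMPT baseMean (plus 0.01, log axis) of Pou5f1, Sox2, Nanog and Utf1 (diamonds) and of the 500 genes nearest to each in gene baseMean (grey points, with their median as a line and PROMPTs at 0 along the bottom). Each diamond lies well above its line, by 14.6 times for Pou5f1 and 30.8 times for Sox2.

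As the factors are short, their reads per base are higher than those of genes with the same baseMean, and the standing of their PROMPTs changed when similar genes were chosen per length. Against the 500 genes nearest in baseMean per kb of exon, the PROMPT of Nanog was above 97.0%, that of Sox2 above 96.0%, that of Utf1 above 89.2% and that of Pou5f1 above 88.2%. Against genes nearest per kb of span, the shares were 96.6% for Nanog, 91.0% for Sox2, 80.2% for Pou5f1 and 76.4% for Utf1. The PROMPT was then 6.83 times the median of similar genes for Nanog, 4.73 times for Sox2, 3.98 times for Utf1 and 2.70 times for Pou5f1. Per kb of span Nanog, Sox2 and Pou5f1 lie so near the top that they were set against the same most transcribed genes, and these 3 shares are not separate comparisons. Most of those genes had a lower level per kb than each of the 3, which ranked 80, 39 and 121 among all genes. The same holds for Nanog per kb of exon, at rank 111. These shares thus do not place the PROMPTs among genes of equal level. The share for Nanog was 96.6% or more by each of the 3 measures, with that limit for both measures per length. Those for Pou5f1 and Utf1 were under 90% by both measures per length. Similarity by level per length was added after the values by baseMean had been seen.

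Relative to its own gene, the PROMPT was a small part of the transcription at each locus. It amounted to 6.64 normalized reads for 1000 of the gene at Pou5f1, 8.60 at Nanog, 14.7 at Sox2 and 82.8 at Utf1, with a median of 1.75 over all 14398 pairs. This ratio is not corrected for length, since the PROMPT window is 1 kb at every gene while gene lengths differ. From 98.2% (Pou5f1) to 99.4% (Sox2) of the genes of similar baseMean were longer than these factors. Whether length accounts for the distance from the median was not tested, and no per-base value over all genes is given. On the log2 scale with 1 added to both levels, the PROMPT was -7.21 relative to the gene for Pou5f1, -6.85 for Nanog, -6.07 for Sox2 and -3.53 for Utf1. Per base the gap was narrower, with the gene 9.84 times its PROMPT per kb at Utf1, 33.0 times at Sox2, 51.9 times at Nanog and 67.0 times at Pou5f1 where gene length was that of exons. With gene span the factor was 16.3 for Nanog and 31.7 for Pou5f1. Utf1 thus had the most PROMPT reads for its gene reads of the 4, at the lowest level of both.

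Other genes of the network had PROMPTs that varied widely. Of the 28, 24 could be ranked among 500 genes of similar baseMean, and their median share of lower PROMPTs was 79.3%. The share was above 50% for 19 of 24 (79.2%), as it was for 7196 of all 14398 genes, and at least 90% for 4, which were Fgf4 (a growth factor gene bound by OCT4 and SOX2, 96.4%), Tfcp2l1 (95.6%), Dppa5a (95%) and Thap11 (90.6%). These 4 are 16.7% of the 24, against 10.3% of all genes. With similar genes taken per kb of exon 2 of 24 reached 90%, and per kb of gene span 1 of 24 did (4.17%, against 10.1% of all genes), with Thap11 at 71.8%. At the other end, Esrrb had a PROMPT of 0.148 with a gene level of 64437 (5.40%), and Stat3, the effector of LIF signaling, had 0.765 (25.4%). Per kb of gene span the median of the 24 was 59.4%. Among the 9 ranked relatives the shares ran from 0 for Pou6f1 to 97.2% for Sox15, whose PROMPT had a level of 61.3 beside a gene level of 248, and Sall1 had 93.0%.

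The genes most like Pou5f1, Sox2 and Utf1 in gene and PROMPT level together were Arf1 for Pou5f1 (gene 7453, PROMPT 51.8), Stx3 for Sox2 (6096 and 87.4) and Rfxap for Utf1 (272 and 19.6). Likeness was the distance between log10 levels over these 2 pooled values, from 0.00853 for Stx3 to 0.0457 for Rfxap.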

How the data were processed

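TT-seq libraries of 18 samples (3 replicates of each of 6 groups named in the sample labels) were processed by the authors, whose methods give adapter trimming by Trim Galore, alignment by STAR to the mm10 genome with unique alignments kept, and counting by strand with featureCounts on Gencode vM25 features without a filter on expression. The submitters' processing notes also name HTSeq and deepTools, and whether exons or whole genes were counted is not given in the sources used here. The values used are the baseMean signal that the authors deposited for genes and for PROMPTs, in which counts were divided by DESeq2 size factors and averaged over all libraries. The other 4 value columns of each table hold the authors' own comparison of depleted with control cells (log2 fold changes, standard errors, p-values and adjusted p-values) and were not used, so no model was fitted and no treatment effect is given. Depth per library is known only through features with 1 read. The tables of putative eRNAs and DHSs name regions by number alone and were not used. The study calls repeats within a clone technical and the 2 clones biological.

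Genes were matched to Gencode vM21 on GRCm38 by identifier (21817 of 21859) and to PROMPTs by symbol. Genes with a baseMean of at least 1 were ranked. Similar genes were the 500 nearest in rank, 250 on each side, or shifted to the end of the ranking where fewer remained. Named genes were the members, lists of relatives, network genes and cell type markers, the FACT genes, and for each member the gene nearest in log10 level of gene and PROMPT (0.1 added), which is not reported here for Nanog. All were chosen with earlier results of these data known, and members of a list named beyond its 2 highest and 2 lowest were chosen after their values were seen. Promoters came from RefSeq for 4 of the 5 members. The ranking and the search for single reads were tested on simulated data. Alternatives were other limits on baseMean, gene span for exon length, windows of 200 or 1000 genes, 20 bins, PROMPTs above 0 alone, other pseudocounts and, chosen after seeing the data, similar genes by level per kb. The software was Python (3.11.15) with pandas (2.3.3), numpy (2.4.6), matplotlib (3.10.9) and scipy (1.17.1), and the random seed was 1.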

Additional observations from a re-analysis of the deposited data

How the results depend on the processing

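The share of genes with a higher baseMean changed with the set of genes ranked. Among all genes above 0 it was 11.0% for Pou5f1, 14.2% for Sox2, 4.04% for Nanog, 6.84% for Sall4 and 55.2% for Utf1, and among genes of at least 10 it was 14.4%, 18.6%, 5.28%, 8.93% and 72.0%. Per kb of exon among genes of at least 10, the share was 3.11% for Pou5f1, 4.28% for Sox2, 8.78% for Sall4 and 57.6% for Utf1. Per kb of gene span it was 0.679%, 0.215%, 0.447%, 2.74% and 16.6% for Pou5f1, Sox2, Nanog, Sall4 and Utf1. The PROMPT of Pou5f1 was above 91.0% and that of Utf1 above 87.5% of the 200 nearest genes. With similar genes by level per kb, chosen after seeing the data, the share per kb of exon was 88.2% for Pou5f1 and 96.0% for Sox2, and per kb of span it was 80.2% for Pou5f1, 91.0% for Sox2 and 76.4% for Utf1. Most genes set against Pou5f1 and Sox2 per kb of span had a lower level per kb than these factors. Windows of 1000 genes, 20 bins, PROMPTs above 0 alone and other pseudocounts moved no PROMPT standing or ratio beyond its 95% binomial interval, which covers counting of genes or reads only. No paired analysis was possible because the values used are means over all libraries, and for the same reason no replicate could be left out. Where reads of the gene body were counted is not given in the sources used here, so neither length can be preferred.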

Other observations

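For 2 markers chosen after their values were seen, the PROMPT was high beside its gene. Neurod1, a neurogenic factor, was listed at 0 as a gene and had a PROMPT level of 4.39, and Tbx6, a mesodermal factor, had a gene level of 124 beside a PROMPT level of 31.8. Overlap of these 2 genes or their PROMPT windows with other annotated genes was not examined, and the cause was not tested.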
